A study of Mus musculus with 4 samples.

Results

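The AP-1 and Egr immediate early factors studied here are 10 transcription factor genes: Fos, Fosb, Fosl1, Fosl2, Jun, Junb, Jund, Atf3, Egr1 and Egr2. They were chosen by name, as every probe set annotated with 1 of these symbols, and all 10 were measured, at 15 probe sets, among 18193 genes tested. Basal cells sorted from mouse tail epidermis were profiled on 4 Affymetrix 3' arrays, 2 from K14CreER:SmoM2:Sox9cKO mice (Sox9cKO) and 2 from K14CreER:SmoM2 mice (SmoM2). All 4 samples therefore carried K14CreER, a tamoxifen-dependent Cre recombinase under a basal keratinocyte promoter, and SmoM2, a constitutively active form of the Hedgehog transducer Smoothened. The Sox9cKO mice also carried a conditional deletion of Sox9. Mice of both genotypes had received 2.5 mg of tamoxifen on each of 10 days, and 9 weeks after the first dose the cells were sorted for integrin alpha 6 on their surface and for lack of CD34. The labels give neither the age of the mice nor how many went into a sample, so p-values cover only the spread among these samples, which may be technical.

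AP-1 is a dimer of leucine zipper proteins, in which a Fos family or Atf protein pairs with a Jun family protein, and Jun proteins also pair with each other. Most of these genes are immediate early genes: growth factors acting through MAP kinases, serum response factor and its ternary complex partners switch them on within minutes and without new protein synthesis. Egr1 and Egr2 are zinc finger proteins induced by the same route, and their activity is held back by the corepressors Nab1 and Nab2. In epidermis AP-1 is known for the control of proliferation, wound and differentiation genes. Tissue dissociation with trypsin, which was used here before sorting, is itself known to induce immediate early genes.

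Of the 10 genes, Egr2 fell in Sox9cKO cells and the other 9 did not pass the test. Egr2 was 2.81-fold lower, with an adjusted p of 0.00179 (limma, Benjamini-Hochberg over all genes). Fos and Egr1, also immediate early genes, differed by 0.04 and -0.01 on the log2 scale. The count of 1 of 10 lower is to be read against 3.53% of all genes called lower and 6.19% called in either direction. The count higher was 0 of 10 against 2.66% of all genes, and at an unadjusted p under 0.05 limma gave 1 of 10 higher (Jun; 8.76% of all genes) and 2 of 10 lower (Egr2 and Fosl1; 9.01% of all genes). Arrays of the genotypes did not overlap for 6 of the 10, of which 4 were lower and 2 higher in Sox9cKO. Over all genes the arrays did not overlap for 47.9%, with 21.8% lower and 26.0% higher, so the members' count of 6 is near the background. The median log2 change was -0.07 over the members and 0.02 over all genes.

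The promoter of Egr2, the gene that changed, is shown beside that of Fos, whose groups overlapped, because both genes are textbook targets of serum response factor. Sequences are the 250 bases before a transcript start from RefSeq (GRCm38.p6), read 5′ to 3′ on the gene's strand, and entries were matched for 8 of the 10 members (not Fosl1 or Egr1), with 12 windows in all, 5 of them for Egr2. Capitals mark the CArG box that serum response factor binds, TGACG (the core of a cyclic AMP response element), TGANTCA (the AP-1 site) or GCGNGGGCG (the Egr site), searched on both strands. The 2 Egr2 windows shown, of the 5, are chr10:67537619-67537868 and chr10:67537316-67537565, on the plus strand and before different starts. Both hold a CArG box. The Egr2 window furthest upstream, chr10:67535249-67535498, held none of the marked motifs and is not shown. Earlier and later refer only to the 2 windows shown. The Fos window is chr12:85473640-85473889, also on the plus strand.
Egr2, later start: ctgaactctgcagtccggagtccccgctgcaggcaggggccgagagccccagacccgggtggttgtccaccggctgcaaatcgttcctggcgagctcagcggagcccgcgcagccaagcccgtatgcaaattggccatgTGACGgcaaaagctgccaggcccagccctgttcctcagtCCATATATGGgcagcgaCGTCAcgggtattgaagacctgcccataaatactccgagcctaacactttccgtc
Egr2, earlier start: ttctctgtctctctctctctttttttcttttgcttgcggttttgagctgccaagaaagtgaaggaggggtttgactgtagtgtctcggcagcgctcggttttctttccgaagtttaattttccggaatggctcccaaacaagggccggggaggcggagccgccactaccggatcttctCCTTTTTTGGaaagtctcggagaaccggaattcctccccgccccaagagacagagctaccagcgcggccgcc
Fos: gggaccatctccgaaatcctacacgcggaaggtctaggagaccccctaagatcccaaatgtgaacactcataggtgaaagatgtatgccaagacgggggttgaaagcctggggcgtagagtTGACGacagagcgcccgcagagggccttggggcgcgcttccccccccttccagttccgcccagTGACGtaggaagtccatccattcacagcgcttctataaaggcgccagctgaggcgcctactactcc

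The later Egr2 window held the CArG box CCATATATGG from base -72 to -63 before the start, and the earlier one held CCTTTTTTGG at the same distance. Of the 12 member windows 4 held a CArG box, all of Egr2, and 3 of these overlap and share 1 box. A box of Fos further than 250 bases before its start would not be seen, and Egr1 had no window. These windows therefore cannot tell whether Egr2 differs from Fos or Egr1 in having a CArG box. A CArG box was present in 1.47% of the 32851 windows of this length in the table. TGACG was found in 7 member windows (17.8% of all windows), among them those of Fos, Fosb, Junb and Atf3. The rest were the 3 overlapping Egr2 windows, which share the same TGACG sites. The Egr site was in the windows of Fosb and Fosl2 (4.7% of all windows), and the AP-1 site in 0 of 12 (6.75% of all windows). For the Sox motifs AACAAT and AACAAAG, which 9.42% and 5.03% of windows held, 0 of 12 matched. A match is a stretch of letters and not a bound site, and the lack of one speaks only of this window.

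The samples were also checked for Sox9, for cell markers and for array quality. The brightest Sox9 probe set in SmoM2 measured 6.75 and 5.70 in the Sox9cKO arrays and 10.21 and 10.02 in the SmoM2 arrays (adjusted p = 0.00171, limma over all probe sets). The other Sox9 probe sets differed by -0.75 (adjusted p = 0.148) and -0.41 (adjusted p = 0.309), and whether any of them lies in a deleted exon is not given here. Of 8 basal keratinocyte markers 0 passed in either direction (limma; 0 higher and 4 lower at an unadjusted p under 0.05), 6 of 8 changes were below 0 and the median was -0.43. The basal keratin Krt14 read 13.15 and 13.30 in Sox9cKO and 13.51 and 13.76 in SmoM2 (-0.41, adjusted p = 0.209), its partner Krt5 changed by -0.0046, and Itga6, the integrin used in the sort, by -0.45 (adjusted p = 0.192). Over all genes 8.76% were higher and 9.01% lower at an unadjusted p under 0.05 (limma). The part of the basal marker shift in the member values was not tested. Cd34, the marker sorted against, lay at 3.75 to 3.95 in Sox9cKO and at 4.14 to 4.15 in SmoM2. Array medians were 5.45 and 5.47 in Sox9cKO and 5.48 and 5.47 in SmoM2. The spiked labelling controls, a sign of amplification, averaged 9.19 and 7.66 in Sox9cKO replicates 1 and 2 and 9.00 and 8.30 in SmoM2 replicates 1 and 2, so replicate 2 was lower in both genotypes. The 3' minus 5' difference of the actin probe sets, a measure of RNA quality, was 0.75 and 0.52 in Sox9cKO and 0.74 and 0.46 in SmoM2. Y-linked genes were at 6.74 or above in Sox9cKO replicate 1 and SmoM2 replicate 2 and at 3.62 or below in the other arrays.

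**Figure D1:**
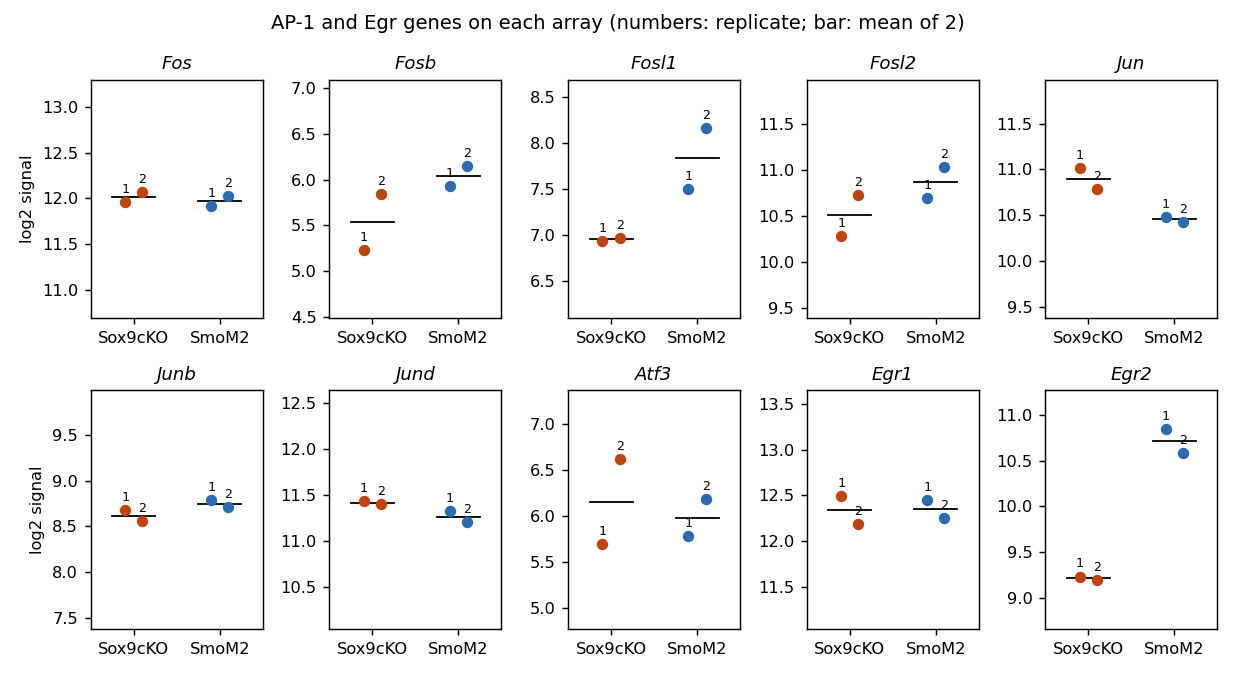
Log2 signal (y axis, each panel spanning the same range of log2 units around the gene's mean) of the 10 genes on each array, with Sox9cKO left and SmoM2 right, replicate numbers over the points and a bar at the mean of 2 arrays. Egr2 shows a gap between the genotypes, from 9.24 at most in Sox9cKO to 10.58 at least in SmoM2, while Fos, Fosl2, Atf3 and Egr1 overlap.

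Egr2 (Krox20) is a zinc finger factor known for hindbrain segmentation and Schwann cell myelination, and in mouse skin it is known from progenitors of the hair shaft. Its signal was 9.24 and 9.20 in Sox9cKO arrays, against 10.84 and 10.58 in SmoM2 arrays. The groups were separated by far more than either spread, with means of 9.22 ± 0.02 and 10.71 ± 0.18 (SD, n = 2 each). The log2 change was -1.49 (SE 0.15, 95% interval -1.84 to -1.15), and the gene ranked 168 by p among all genes. The second Egr2 probe set read 8.86 and 9.03 in Sox9cKO arrays and 10.37 and 10.47 in SmoM2 arrays. It changed by -1.47 (SE 0.14, adjusted p = 0.00312 by limma over all probe sets), so both probe sets gave nearly the same change. Over all probe sets 2.34% were called lower, and of the 15 member probe sets these 2 were called.

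Egr1, the family member best known as a rapid sensor of mitogens and injury, did not separate the genotypes. It measured 12.50 and 12.18 in Sox9cKO arrays and 12.45 and 12.25 in SmoM2 arrays. The groups overlapped fully, and the change of -0.01 (SE 0.16, adjusted p = 0.988 by limma) had a 95% interval of -0.39 to 0.37, which does not reach the change of Egr2. Egr3 and Egr4, the remaining factors of the family, were singled out after their values were seen. Egr3 measured 11.32 and 11.42 in Sox9cKO arrays and 10.56 and 11.58 in SmoM2 arrays, and Egr4 measured 6.03 and 6.12 in Sox9cKO arrays and 5.86 and 5.90 in SmoM2 arrays. Their changes were 0.30 (adjusted p = 0.698) and 0.20 (adjusted p = 0.535) by limma.

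Among the Fos proteins, which cannot pair with each other and need a Jun partner, Fos itself overlapped between genotypes. It read 11.96 and 12.07 in Sox9cKO arrays, against 11.92 and 12.02 in SmoM2 arrays. Its change was 0.04 (SE 0.14, adjusted p = 0.920 by limma), with a 95% interval of -0.28 to 0.36. Fosb, which like Fos carries a strong activation domain, read 5.23 and 5.84 in Sox9cKO arrays and 5.93 and 6.15 in SmoM2 arrays. The Fosb values lie close to the array medians of all probe sets. Its change was -0.50 (SE 0.21, adjusted p = 0.286 by limma) with arrays not overlapping, and it was -0.20 without Sox9cKO replicate 1 and -0.80 without Sox9cKO replicate 2.

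Fosl1 (Fra-1) and Fosl2 (Fra-2), which lack that activation domain, were both lower on average in Sox9cKO, and neither passed. Fosl1 read 6.93 and 6.97 in Sox9cKO arrays, against 7.50 and 8.17 in SmoM2 arrays. All Sox9cKO values were below all SmoM2 values, but the SmoM2 arrays differed from each other by 0.66. The change of -0.88 (SE 0.22, 95% interval -1.40 to -0.37) had an adjusted p of 0.0660 (limma), which became 0.0240 at a change of -1.22 without SmoM2 replicate 1 and 0.200 at -0.55 without SmoM2 replicate 2. The second Fosl1 probe set was dimmer, at 4.69 and 4.92 in Sox9cKO arrays and 4.97 and 5.70 in SmoM2 arrays, with a change of -0.53 (adjusted p = 0.389 over all probe sets). The 2 Fosl1 probe sets thus had the same order of arrays, with SmoM2 replicate 2 highest on both. Fosl2 read 10.28 and 10.73 in Sox9cKO arrays and 10.70 and 11.03 in SmoM2 arrays, and the groups overlapped slightly. Its change was -0.36 (adjusted p = 0.422 by limma), or -0.13 without Sox9cKO replicate 1 and -0.59 without Sox9cKO replicate 2, and a dimmer second probe set gave 0.04 (adjusted p = 0.958 over all probe sets), so the probe sets did not share a direction.

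The Jun proteins, the partners common to all AP-1 dimers, spread in both directions. Jun read 11.02 and 10.78 in Sox9cKO arrays, against 10.48 and 10.43 in SmoM2 arrays. Both Sox9cKO arrays were above both SmoM2 arrays, and the change of 0.44 (SE 0.15, 95% interval 0.10 to 0.79) did not pass (adjusted p = 0.155 by limma). The second Jun probe set had the same order of genotypes, with 9.32 and 8.71 in Sox9cKO arrays and 8.53 and 8.46 in SmoM2 arrays, a change of 0.52 (adjusted p = 0.311 over all probe sets). Junb, often an antagonist of Jun in keratinocytes, read 8.68 and 8.56 in Sox9cKO arrays and 8.79 and 8.71 in SmoM2 arrays. Its change of -0.13 (adjusted p = 0.712 by limma) was small although the arrays did not overlap. Jund, the least inducible of the family, read 11.44 and 11.40 in Sox9cKO arrays and 11.32 and 11.20 in SmoM2 arrays. The change was 0.16 (adjusted p = 0.650 by limma), and the dim second probe set gave 0.30 (adjusted p = 0.411 over all probe sets).

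Atf3, a stress-induced factor that pairs with Jun proteins, read 5.69 and 6.62 in Sox9cKO arrays and 5.78 and 6.18 in SmoM2 arrays. The Sox9cKO values enclosed the SmoM2 values. The SD within groups was larger than for 98.3% of genes, and the change of 0.18 had a 95% interval of -0.53 to 0.88 (adjusted p = 0.840 by limma). Of the 10 members it had the widest interval.

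**Figure D2:**
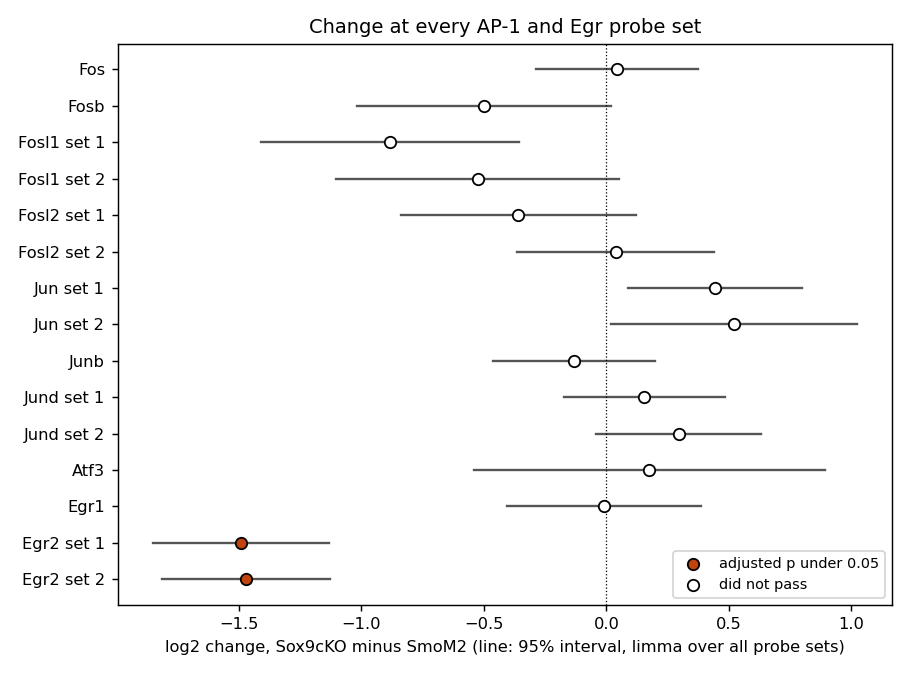
Log2 change (x axis, Sox9cKO minus SmoM2) at each of the 15 probe sets, with 95% intervals from limma over all probe sets, where set 1 is the brighter one on average and filled points have an adjusted p under 0.05. Both Egr2 sets lie near -1.5, at -1.49 and -1.47, and the 13 others lie between -0.88 and 0.52.

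Several members differed between the 2 arrays of a genotype. Fosb was higher in replicate 2 than in replicate 1 by 0.61 in Sox9cKO and by 0.23 in SmoM2, Fosl2 by 0.45 and 0.34, and Atf3 by 0.93 and 0.41. Egr1 was lower in replicate 2 by 0.31 and 0.20 (differences of -0.31 in Sox9cKO and -0.20 in SmoM2). Fosl1 differed by 0.03 between the Sox9cKO arrays and by 0.66 between the SmoM2 arrays. The labelling controls, the actin difference and the Y-linked genes given above also differed between the 2 arrays of each genotype. Their part in these member values was not tested. With 2 arrays per genotype the replicate differences are descriptions.

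**Figure D3:**
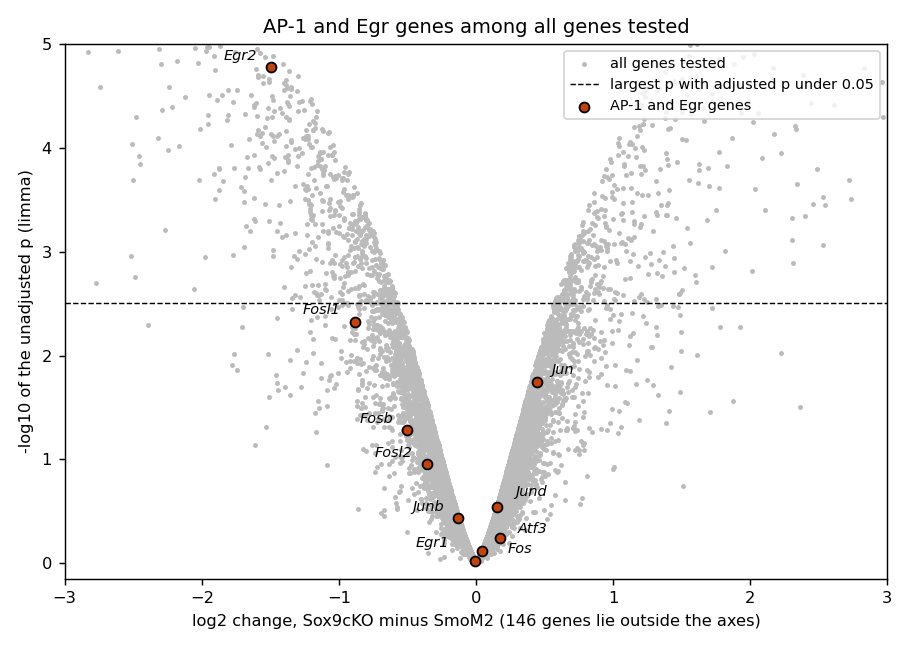
Log2 change (x axis, Sox9cKO minus SmoM2) against -log10 of the unadjusted p (y axis) for the 18193 genes tested, with the 10 members as large points and a dashed line at the largest p called, and 146 genes outside the axes. Egr2 lies above the line, Fosl1 just below it, and Fos and Egr1 at the foot of the cloud.

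The genes whose 4 array values, each centred on its mean, lay closest to those of Egr2 were 2310034G01Rik, 1190005I06Rik and Hacd1, an enzyme of very long chain fatty acid elongation. Their Euclidean distances were 0.10, 0.11 and 0.13 log2 units, and 168 genes lay within 0.5. The nearest genes changed by -1.59, -1.40 and -1.57.

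Of the kinases and ternary complex factors upstream of immediate early genes, 1 passed the test. Of 30 listed genes 23 were measured, of which 1 rose and 0 fell (limma; 3 higher and 2 lower at an unadjusted p under 0.05), with a median change of -0.05. Counts in this and the following lists are to be read against 2.66% of all genes called higher and 3.53% called lower. At an unadjusted p under 0.05 the shares of all genes were 8.76% and 9.01% (limma). The gene that rose was Map3k1, a kinase above the Jun kinases, at 9.34 and 8.97 in Sox9cKO arrays and 8.35 and 8.24 in SmoM2 arrays (log2 0.86, adjusted p = 0.0267). A second Map3k1 probe set changed by 0.91. Leaving out SmoM2 replicate 1, SmoM2 replicate 2 or Sox9cKO replicate 1 gave an adjusted p of 0.108, 0.154 or 0.100. Elk4, a ternary complex factor, changed by 0.49 (adjusted p = 0.172), and the kinases Map2k1 and Braf by -0.38 (adjusted p = 0.174) and 0.39 (adjusted p = 0.205).

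Of the corepressors and regulators, 1 of 9 rose and 0 fell (limma; 2 higher and 1 lower at an unadjusted p under 0.05), with a median of 0.00. Nab2, which binds Egr1 and Egr2 and represses their activity and is itself an Egr target, read 7.82 and 7.61 in Sox9cKO arrays and 6.90 and 6.67 in SmoM2 arrays. It rose by 0.93 (SE 0.15, adjusted p = 0.0142), with an adjusted p of 0.0989 without SmoM2 replicate 2 and 0.0610 without Sox9cKO replicate 1. Nab1, its relative, read 11.16 and 11.15 in Sox9cKO arrays and 11.14 and 11.27 in SmoM2 arrays and did not pass (adjusted p = 0.903). The other AP-1 bZIP partners had 0 of 14 measured genes called in either direction (limma; 2 higher and 1 lower at an unadjusted p under 0.05) and a median of 0.09. The largest value among them was that of Maf, at 0.81 (adjusted p = 0.104), which was 1.12 (adjusted p = 0.0315) without Sox9cKO replicate 1, 0.51 (adjusted p = 0.339) without Sox9cKO replicate 2 and 0.42 (adjusted p = 0.240) as the mean of its probe sets.

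Other immediate early genes were called in both directions. Of 25 measured, 2 rose and 2 fell (limma), with a median change of -0.09. At an unadjusted p under 0.05 limma gave 2 higher and 9 lower, against 8.76% and 9.01% of all genes. Of the 25 changes 17 were below 0, while 53.7% of changes over all genes were above 0. The largest change was that of Ptgs2, at -1.74, which did not pass (adjusted p = 0.131, limma). It read 8.66 and 6.87 in Sox9cKO arrays and 9.10 and 9.91 in SmoM2 arrays. Gadd45b, a growth arrest and stress gene, read 8.85 and 9.15 in Sox9cKO arrays and 7.94 and 8.04 in SmoM2 arrays and rose by 1.01 (adjusted p = 0.0111). Ccn2 (Ctgf), a matricellular protein, rose by 0.61 (adjusted p = 0.0469). Nr4a2, an orphan nuclear receptor, read 5.67 and 5.34 in Sox9cKO arrays and 6.52 and 6.67 in SmoM2 arrays and fell by 1.09 (adjusted p = 0.00899). The probe sets of Nr4a2 disagreed, and 2 of its 6 gave changes of 0.00 and 0.01. The remaining ones not used gave -1.16, -0.81 and -0.35. The mean of all Nr4a2 probe sets changed by -0.57 and did not pass (adjusted p = 0.0721, limma). Myc, a growth regulator, fell by 0.61 (adjusted p = 0.0424). The calls of Ccn2 and Myc were lost with any single array left out (adjusted p of 0.0936 to 0.189), that of Gadd45b without SmoM2 replicate 1 or 2 (0.0818 and 0.0649) and that of Nr4a2 without SmoM2 replicate 2 (0.0778). Dusp1, a phosphatase of MAP kinases, Ier2 and Zfp36, a regulator of mRNA decay, are classic early genes that did not pass, at 0.19, -0.11 and -0.01 (adjusted p of 0.576, 0.786 and 0.989). They and Ptgs2 were singled out after their values were seen.

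The heat shock and dissociation stress list, which covers genes known to be induced during tissue handling, had 2 of 20 measured genes higher and 1 lower, with a median of -0.09. At an unadjusted p under 0.05 limma gave 3 higher and 5 lower in this list. Hspb8, a small heat shock protein, read 9.91 and 10.30 in Sox9cKO arrays and 8.50 and 8.50 in SmoM2 arrays and rose by 1.60 (adjusted p = 0.00217). Its other probe sets changed by 1.53 and -0.22, and the mean over all of them by 0.97 (adjusted p = 0.0219). Hspa1a, an inducible chaperone, rose by 0.98 (adjusted p = 0.0274), and its near-identical copy Hspa1b changed by 0.40 (adjusted p = 0.177), so that signal of the pair may be shared. Cebpd, a stress-induced leucine zipper factor, fell by 1.26 (adjusted p = 0.00882). A second Cebpd probe set changed by -0.21. Without SmoM2 replicate 2 the adjusted p of Cebpd was 0.0659, and that of Hspa1a was 0.142 without SmoM2 replicate 1 and 0.105 without Sox9cKO replicate 2. The mean level of the list was 10.56 and 10.62 in Sox9cKO arrays and 10.58 and 10.69 in SmoM2 arrays, so its arrays overlapped.

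Keratinocyte genes known to be controlled by AP-1 had 4 of 27 measured members lower and 2 higher, with a median of -0.30 and 21 of 27 changes below 0. Calls covered 3.53% of all genes lower and 2.66% higher. At an unadjusted p under 0.05 limma gave 8 lower and 3 higher in this list, against 9.01% and 8.76% of all genes. Over all genes 53.7% of changes were above 0. Hbegf, an EGF receptor ligand and AP-1 target, read 9.22 and 9.17 in Sox9cKO arrays and 10.42 and 10.79 in SmoM2 arrays. It fell by 1.41 (adjusted p = 0.00319), with -1.43 at its second probe set. Mmp10, a matrix protease, read 4.99 and 5.44 in Sox9cKO arrays and 6.18 and 6.95 in SmoM2 arrays and fell by 1.35 (adjusted p = 0.0299). It no longer passed with SmoM2 replicate 2 (adjusted p = 0.121) or Sox9cKO replicate 1 (0.100) left out. The calprotectin genes S100a8 and S100a9 also fell, by 3.56 and 3.71 (adjusted p of 0.000281 and 0.000135, limma). The cytokine Tslp and loricrin (Lor) rose, by 4.98 and 1.56 (adjusted p of 0.000318 and 0.00135, limma). The collagenase Mmp13, with -1.61, did not pass (adjusted p = 0.342), and its arrays overlapped, at 7.07 and 9.28 in Sox9cKO and 8.88 and 10.70 in SmoM2. Mmp13 was singled out after its values were seen.

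Genes known to be controlled by Egr1 had 3 of 14 measured members higher and 2 lower, with a median of 0.23. Calls covered 2.66% of all genes higher and 3.53% lower. At an unadjusted p under 0.05 limma gave 6 higher and 4 lower in this list, against 8.76% and 9.01% of all genes. Both platelet-derived growth factor genes on the list fell. Pdgfa read 8.91 and 8.96 in Sox9cKO arrays and 9.69 and 10.01 in SmoM2 arrays, with a change of -0.92 (adjusted p = 0.0158). Pdgfb changed by -0.92 (adjusted p = 0.0220), or -0.32 at its second probe set. Those that rose were Nab2, Gadd45a, a growth arrest gene, with 0.78 (adjusted p = 0.0155), and Ndrg1, a stress and differentiation gene, with 0.67 (adjusted p = 0.0496). Without SmoM2 replicate 2 or Sox9cKO replicate 1 the adjusted p was 0.0958 and 0.0582 for Pdgfa and 0.120 and 0.0839 for Pdgfb. The calls of Gadd45a (0.0562 to 0.0956) and Ndrg1 (0.0800 to 0.236) were lost with any single array left out. Ndrg1 also lost it as the mean of its probe sets (0.44, adjusted p = 0.168), without _x_at and _s_at probe sets (0.60, adjusted p = 0.0701) and with quantile normalization (0.67, adjusted p = 0.0560), and 2 of its 5 probe sets changed by 0.17 and 0.18. These lists were compiled from general knowledge of the factors and not from this tissue.

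**Figure D4:**
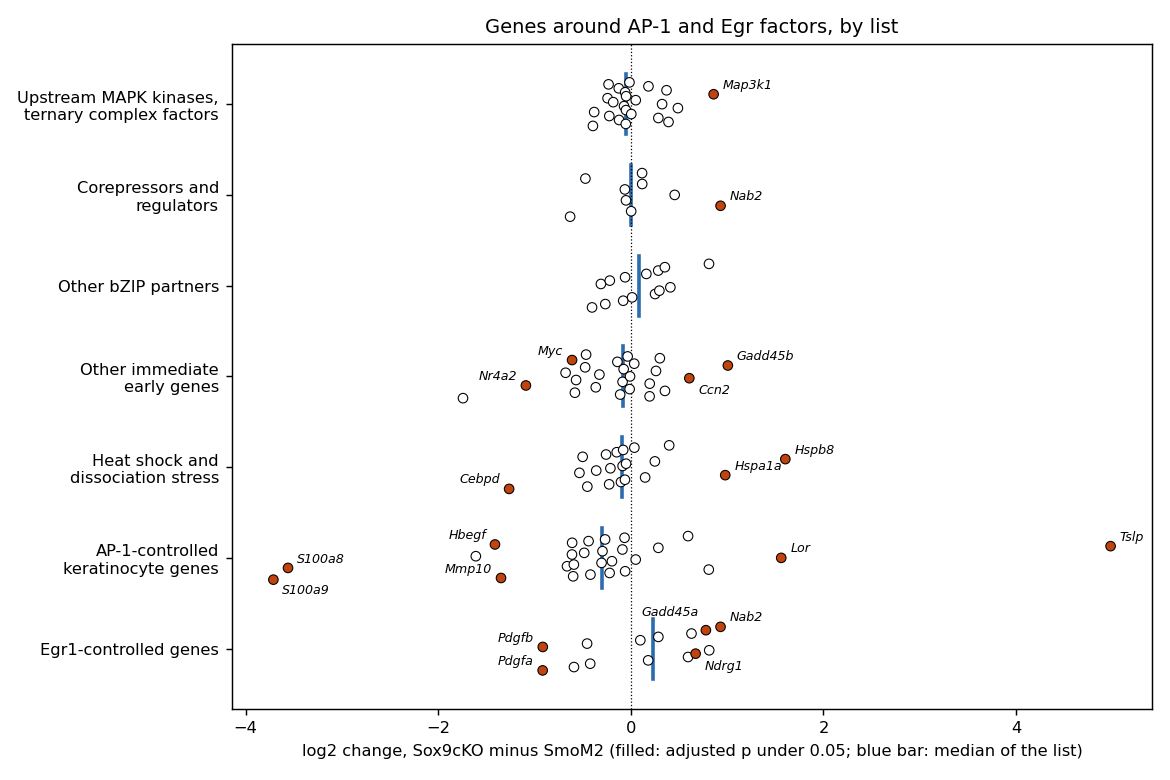
Log2 change (x axis, Sox9cKO minus SmoM2) of each measured gene in the 7 lists around the AP-1 and Egr factors, with filled and named points for an adjusted p under 0.05 and a blue bar at each list's median. The medians run from -0.30 to 0.23, and the called genes lie on both sides in 4 of the 7 lists.

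Several cell types other than basal keratinocytes express Egr2, and their markers were read beside it. In bulk samples, fewer cells of a type and less RNA per cell cannot be told apart. Beside each marker count stand 2.66% of all genes called higher and 3.53% called lower. At an unadjusted p under 0.05 these shares were 8.76% and 9.01% (limma). T cell markers had 1 of 7 measured genes higher and 0 lower (limma; 1 higher and 0 lower at an unadjusted p under 0.05). That gene, Thy1, is on the fibroblast list too, and without it the mean levels were 4.52 and 4.57 in Sox9cKO arrays and 4.38 and 4.45 in SmoM2 arrays. The T cell receptor complex genes Cd3d, Cd3e and Cd3g lay at or below 5.89 on every array. Langerhans and myeloid markers had 1 of 10 higher (H2-Aa) and 0 lower (limma; 3 higher and 0 lower at an unadjusted p under 0.05), at mean levels of 5.65 and 5.64 in Sox9cKO arrays and 5.34 and 5.09 in SmoM2 arrays. Schwann cell markers, a list added after the Egr2 values were seen, had 2 of 6 measured genes lower, Ncmap (-0.94, adjusted p = 0.00814) and Mal (-0.86, adjusted p = 0.0402), with mean levels of 6.42 and 6.70 in Sox9cKO arrays and 6.70 and 6.84 in SmoM2 arrays, which overlapped. At an unadjusted p under 0.05 limma gave 0 higher and 2 lower Schwann cell markers. The Schwann cell factor Sox10 changed by 0.09 (adjusted p = 0.815) and the myelin gene Mbp by 0.13 (adjusted p = 0.785).

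Fibroblast markers had 2 of 8 higher and 0 lower (limma; 3 higher and 0 lower at an unadjusted p under 0.05). Dcn, which encodes the proteoglycan decorin, rose by 3.66 (adjusted p = 0.000446) and Thy1 by 1.99 (adjusted p = 0.000831), while the collagen gene Col1a1 read 4.38 and 4.17 in Sox9cKO arrays and 4.51 and 4.08 in SmoM2 arrays. Suprabasal keratinocyte markers had 3 of 8 higher and 0 lower (limma; 3 higher and 0 lower at an unadjusted p under 0.05), with a median of 0.60. They were the desmosomal cadherin Dsg1a (1.87) and the cornified envelope genes Flg (1.82) and Lor (1.56). Hair matrix, inner root sheath and shaft markers, a list added after values were seen, had 6 of 10 higher and 0 lower (limma; 8 higher and 0 lower at an unadjusted p under 0.05), with mean levels of 7.48 and 7.24 in Sox9cKO arrays and 6.11 and 6.01 in SmoM2 arrays. The inner root sheath keratins Krt25, Krt73 and Krt71 rose by 3.24, 2.34 and 1.41, Tchh (trichohyalin) by 1.78 and the transcription factor Gata3 by 1.11. Msx2, another transcription factor, rose as well (adjusted p = 0.00315). Sebocyte markers had 2 of 6 lower and 0 higher (limma; 4 lower and 0 higher at an unadjusted p under 0.05), the lipid droplet genes Cidea (-2.29) and Plin2 (-1.18). Melanocyte and endothelium markers had 0 of 8 and 0 of 6 called (limma; 1 and 0 at an unadjusted p under 0.05). Of 7 bulge stem cell markers Lhx2 rose by 0.79, while Tcf7l2 and Nfatc1 fell by 1.20 and 1.04 (limma; 1 higher and 3 lower at an unadjusted p under 0.05). The count of 3 lower includes Sox9, the gene targeted by the deletion. The bulge list also holds Cd34, the marker sorted against. With single arrays left out, the calls of Ncmap, Mal, Flg, Krt73, Krt71, Lhx2, Nfatc1 and Tcf7l2 were lost at least once. The part of any of these cell types in the change of Egr2 was not tested.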

How the data were processed

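Total RNA (100 ng per sample) from sorted cells was amplified with a 3' labelling kit and run on Affymetrix arrays, per the labels' protocols. The authors deposited log2 signals, 1 per probe set and array. Background correction, summary and normalization: not given in the sources used here. Of tools, the submitters' processing notes name R 2.14.0 without its role. As array medians were near-equal, a shift common to most genes may not be visible in these values.

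Of 45101 probe sets, 64 control probe sets, 932 with several symbols and 9160 with none were left out of the gene test. Symbols came from the platform annotation, with 34741 brought up to date by entrez ID. Each gene was read from its brightest probe set on average, which gave 18193 genes. Sox9cKO was compared with SmoM2 in limma 3.58.1 under R 4.3.3 (lmFit and eBayes, no covariate, two-sided), with Benjamini-Hochberg adjustment over all genes and calls at 0.05, on 7.17 total degrees of freedom. A fit over 45037 probe sets gave the values of second probe sets. The procedure was tested on simulated data, drawn from limma's own fitted variances with independent normal noise. Such data meet the assumptions of the test by construction. The number of arrays limits the precision.

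Named are all members, every Sox9 probe set, from each of the 7 pathway lists up to 4 genes of smallest p and those that passed, the 3 genes nearest to each called member, and the listed markers. Egr3, Egr4, Nab1, Hspa1b, Mmp13, Ptgs2, Dusp1, Ier2 and Zfp36 were added after their values were seen, as were 2 marker lists. Members and lists were chosen with earlier results of these data known. Deviations of arrays with the same replicate number correlated at r = 0.0923 over all genes, and the numbers were not taken as pairs in the main fit.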

Additional observations from a re-analysis of the deposited data

How the results depend on the processing

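Egr2 kept its direction and its call under all 10 alternatives, with log2 changes of -1.62 to -1.36 and an adjusted p of at most 0.0186 (limma). The number of member genes called stayed at 1 except for 2 without SmoM2 replicate 1 and 2 with a replicate block, where Fosl1 was the added gene (adjusted p = 0.00679 with the block). With arrays left out singly it ran from 1 to 2. The number of all genes called was 1919 with the replicate block, against 1126, and ran from 534 (without SmoM2 replicate 2) to 900 (without Sox9cKO replicate 2) with arrays left out singly. In those fits a single remaining array takes its spread from the other genotype. The replicate block also brought Maf past the threshold (adjusted p = 0.00462, limma). Deviations of same-numbered arrays correlated at r = 0.0923 over all genes. At the probe sets used, each member differed between replicates 1 and 2 in the same direction in both genotypes, as did the labelling controls. The share of all genes that did so was not counted. The dimmer Fosl2 probe set did not, at 6.08 and 6.12 in Sox9cKO arrays and 6.25 and 5.87 in SmoM2 arrays. The second Egr2 probe set was higher in replicate 2 in both genotypes, where the one used was lower. Whether same-numbered arrays were handled together is not given. The number of member probe sets called ran from 2 to 3. Of the 10 members 7 kept their direction in every alternative run. The others changed sign without SmoM2 replicate 1 (Fos -0.0075, Atf3 -0.03, Egr1 0.09) and without Sox9cKO replicate 2 (Fos -0.010, Atf3 -0.29, Egr1 0.15), and with arrays left out singly they ran up to 0.096 for Fos and 0.64 for Atf3 and down to -0.16 for Egr1. Nr4a2 was at 0.0027 without _s_at and _x_at probe sets, because another of its probe sets then stood for it. Tsc22d3 passed without Sox9cKO replicate 2 (-1.24, adjusted p = 0.00888). Of 19 genes called in the 7 pathway lists, 13 lost the call in at least 1 alternative, as did 8 of 18 called marker genes, whose alternatives were added after seeing the data. Fosb and Atf3 were not tested with dim genes left out.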
